A study of Mus musculus with 24 samples.

Results

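Mouse peritoneal macrophages driven into opposite activation states were compared while the same proteasome inhibitor was present on both sides. The comparison sets 4 libraries of M1 cells with ONX-0914 against 4 libraries of M2 cells with ONX-0914, chosen by their labelled treatment, which is 8 of the 24 libraries in all. The cells on 1 side received LPS, IFN-γ and ONX-0914, and those on the other side IL4 and ONX-0914. They are written M1+ONX and M2+ONX. The remaining 16 libraries are 4 each of M1 (LPS and IFN-γ) and M2 (IL4) cells without inhibitor and of unpolarized M0 cells without and with the inhibitor. Each library came from 50000 peritoneal macrophages pooled from 2 to 3 mice, and the 4 libraries of a group are labelled as independent replicates. No source used here gives the strain, sex or age of the mice, or the doses and times of treatment. The comparison asks how far apart the polarized states lay when the inhibitor was present. A second comparison asks whether that gap differed from the gap between M1 and M2 cells without inhibitor.

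LPS signals through Toll-like receptor TLR4 to NF-κB and to interferon regulatory factors, and IFN-γ signals through JAK kinases, and together they drive the inflammatory, microbicidal M1 state. IL-4 signals through STAT6 and drives the alternatively activated M2 state, which is known for arginase, lectin receptors and lipid uptake. ONX-0914 inhibits the immunoproteasome, the proteasome form in which PSMB8, PSMB9 and PSMB10 replace the constitutive catalytic subunits PSMB5, PSMB6 and PSMB7. When proteasome activity falls, cells are known to restore it through the transcription factor NRF1, and NRF2, which KEAP1 holds down and p62 releases, drives antioxidant genes.

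Total counts per library were 18883077 to 22882972 in M1+ONX and 18585730 to 19830981 in M2+ONX. Mitochondrial genes took 0.962% to 1.01% of counts in M1+ONX and 1.5% to 1.59% in M2+ONX, and the 10 most counted genes took 10.7% to 10.9% and 13.8% to 14.5%. Levels are CPM, counts scaled to the library total, after TMM scaling over all 24 libraries. A level with ± is a mean with its SD over the 4 libraries of a group, and a log2 difference with ± has its standard error. The 10 macrophage markers were all detected in both groups, with a summed level of 11010 to 11490 CPM in M1+ONX and 11100 to 12460 CPM in M2+ONX. The 12 neutrophil markers summed to 110.6 to 123 CPM in M1+ONX and 72.51 to 93.22 CPM in M2+ONX, most of it from Csf3r, the G-CSF receptor, at 103 ± 6.58 against 64.7 ± 10.1 CPM. Of the 3 that were tested, Csf3r and S100a8 were higher in M1+ONX and Mmp8 in M2+ONX, while S100a9 and Ly6g had no count in any of the 8 libraries. The 16 B cell markers summed to 41.7 to 46.7 CPM in M1+ONX and 61.8 to 69.5 CPM in M2+ONX, most of it from Cd22, at 36.9 ± 1.45 against 60.0 ± 2.98 CPM. Of the 17 T and NK cell markers, Il7r alone accounted for nearly all of the sum, at 697 ± 20.6 against 707 ± 19.7 CPM, and Cd3d and Cd3g had no count in M1+ONX. Markers of mesothelial cells and fibroblasts were present on both sides, at a summed 815.6 to 924.7 CPM in M1+ONX and 852.9 to 1000 CPM in M2+ONX, with Col1a2 at 299 ± 15.6 against 334 ± 22.9 CPM. Their part in the results was not tested. In bulk RNA, fewer cells of a type and less RNA per cell cannot be told apart.

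M2+ONX replicate 4 stood apart from the other 3 libraries of its group, mainly in interferon genes and in genes of the NF-κB list. The summed level of 31 type I interferon-stimulated genes was 792.2 CPM in that library and 501.7 to 609.2 CPM in the other 3, against 26460 to 28640 CPM in M1+ONX, and 29 of the 31 genes were highest in replicate 4. Among the 17 guanylate-binding proteins and immunity-related GTPases, 14 were highest there, as were 14 of the 18 NF-κB genes. Of 22 chemokine genes 10 were highest there, and of 20 inflammatory cytokine genes 3. Clec4e, Acod1 and Ccl5, outside the interferon and NF-κB lists, were also highest there, with values given below. Nos2 had no count in replicate 4 and Cd40 was at 3.42 CPM, inside the range of the other 3. The counts of called genes in both interferon lists and in the NF-κB list are therefore given also without this library. Values of single genes include it unless stated otherwise. M1 replicate 2, a library without inhibitor that enters only the second comparison, had 0.300% of counts on mitochondrial genes where the other 3 M1 libraries had 1.07% to 1.14%, and that comparison is given also without it.

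With the inhibitor on both sides, the states differed at most expressed genes, and the largest differences were on the M1 side. Of 13522 genes tested, 9821 (72.6%) were called at an adjusted p under 0.05 (edgeR quasi-likelihood test, Benjamini-Hochberg adjustment), 4804 (35.5%) higher in M1+ONX and 5017 (37.1%) higher in M2+ONX. Which side had more calls depended on the scaling and the test, with 4946 on the M1 side and 4874 on the M2 side with DESeq2 size factors, 4825 and 4716 with DESeq2's Wald test, and 4349 and 5327 when all 24 libraries were scaled and fitted together. The median log2 difference over all genes was -0.03. Counts of list members below are to be set beside the shares of 35.5% and 37.1%. Differences of at least 1 on the log2 scale were called for 1507 genes on the M1 side and 1734 on the M2 side. From there the sides parted, with 714 against 496 genes at 2 or more, 257 against 84 at 4 or more and 107 against 22 at 6 or more. The genes at least 4 log2 units higher in M1+ONX took 7.81% ± 0.0846 of all counts in M1+ONX (SD, n = 4) and 0.177% ± 0.0372 in M2+ONX. Their counterparts on the M2 side took 0.443% ± 0.0261 of the counts in M2+ONX and 0.007% in M1+ONX. For 8956 genes (66.2%) the 4 libraries of one group lay wholly above the 4 of the other. Remarks below on groups that do not overlap are to be read beside this share.

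The root mean square log2 distance between the group means over genes was 1.28 for M1+ONX and M2+ONX, and 1.30 without M2+ONX replicate 4. Between M1 and M2 without inhibitor it was 1.39, and again 1.39 without M1 replicate 2. Single pairs of an M1+ONX and an M2+ONX library lay 1.28 to 1.35 apart, where pairs within M1+ONX lay 0.399 to 0.416 apart and pairs within M2+ONX 0.359 to 0.389. Pairs of an M1 and an M2 library without inhibitor lay 1.41 to 1.51 apart, or 1.41 to 1.44 without M1 replicate 2. These distances are a description, and no test was made of their difference.

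**Figure D1:**
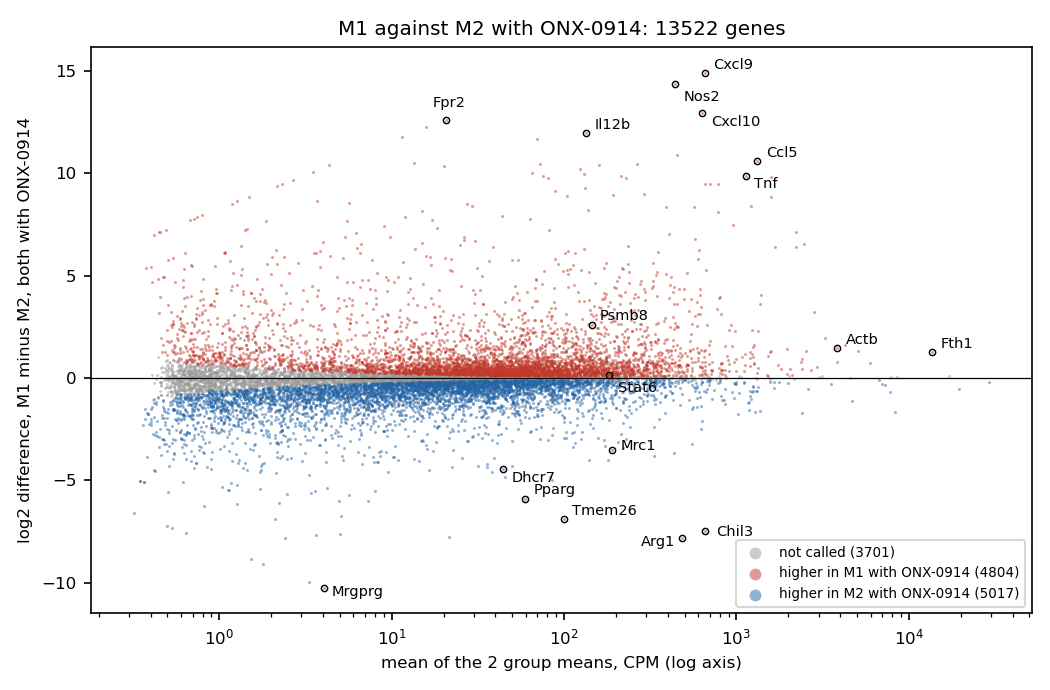
Log2 difference between M1 and M2 cells, both with ONX-0914 (vertical axis), against the mean of both group means in CPM (horizontal axis, log scale) for 13522 genes, each point 1 gene. Of the coloured genes, 4804 were called higher in M1 and 5017 higher in M2, and the points reach further from 0 on the M1 side.

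The widest gaps toward M1 were in nitric oxide synthase, T cell-attracting chemokines and interleukin-12. Positions of genes are given on build GRCm38. Inducible nitric oxide synthase is the product of Nos2 (ENSMUSG00000020826, chromosome 11, 78920787 to 78960254), which was at 944, 934, 918 and 744 CPM in M1+ONX and had 3 counts in all over the M2+ONX libraries, 0.0477, 0.0502, 0.0497 and 0 CPM, a ratio of 24000-fold, with a 95% counting interval of 8213 to 116400 (adjusted p = 4.1e-22). Cxcl9 (ENSMUSG00000029417, chromosome 5, 92321347 to 92328079) was at 1806, 1237, 1169 and 1061 CPM in M1+ONX, with 3 counts over M2+ONX, all of them in replicate 3, and a ratio of 36240-fold, with a 95% counting interval of 12400 to 175800 (adjusted p = 6.28e-19). Cxcl10 (ENSMUSG00000034855, chromosome 5, 92346638 to 92348889) was at 1222, 1201, 1310.2 and 1339.6 CPM in M1+ONX and 0, 0.402, 0.0993 and 0.149 CPM in M2+ONX (log2 difference 12.92 ± 0.13, adjusted p = 1.4e-22). With Cxcl11, these genes encode the ligands of CXCR3, the receptor that guides activated T cells. In each of them every M1+ONX library stood far above every M2+ONX library, and the M2+ONX levels were at or near 0.

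Cxcl11 was at 31.8, 33.7, 28.9 and 31.8 CPM in M1+ONX and had no count in M2+ONX, which makes it at least 853-fold higher when 3 counts over the group are taken as the floor. Fpr2, a formyl peptide receptor that senses bacterial products, was at 39.1, 42.3, 41.3 and 41.8 CPM against no count, at least 1110-fold higher. Il12a, the p35 chain of interleukin-12, was at 20.7, 20.4, 25.5 and 24.9 CPM against no count, at least 616-fold higher. The partner chain p40 is encoded by Il12b, and the cytokine made of both chains steers T helper cells toward type 1 responses. Il12b was at 289, 273, 295 and 215 CPM in M1+ONX and 0.0477, 0.1, 0.0993 and 0 CPM in M2+ONX (log2 difference 11.97 ± 0.19, adjusted p = 3.71e-20).

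The other genes at the M1 end belonged to families known as interferon-inducible, except the chemokine gene Ccl5. LPS and IFN-γ were given together, so their parts in these levels cannot be told apart. Ifit3, an antiviral protein that binds foreign RNA together with its relatives, was at 775, 887, 938 and 992 CPM in M1+ONX and 0.239, 0.502, 0.298 and 0.843 CPM in M2+ONX (log2 difference 10.91 ± 0.14, adjusted p = 1.25e-21). Its near copy Ifit3b was at 118, 149, 153 and 164 against 0.0477, 0.251, 0.0497 and 0.0496 CPM. Reads from these copies could have been split between them by the counting, so each value alone is uncertain. Ifi206 and Ifi208, members of the PYHIN family of DNA sensors, are likewise close relatives. Ifi206 was at 532 ± 25.9 against 0.382 ± 0.361 CPM, and Ifi208, at 135, 138, 143 and 142 CPM in M1+ONX, had 3 counts over M2+ONX and a ratio of 3774-fold, with a 95% counting interval of 1291 to 18300. Ccl5, which draws T cells and monocytes, was at 2492, 2633, 2676 and 2768 CPM in M1+ONX and 0.716, 0.603, 0.894 and 4.76 CPM in M2+ONX (log2 difference 10.59 ± 0.24, adjusted p = 4.21e-18), and replicate 4 of M2+ONX was the high one. Without that library its log2 difference was 11.82.

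**Figure D2:**
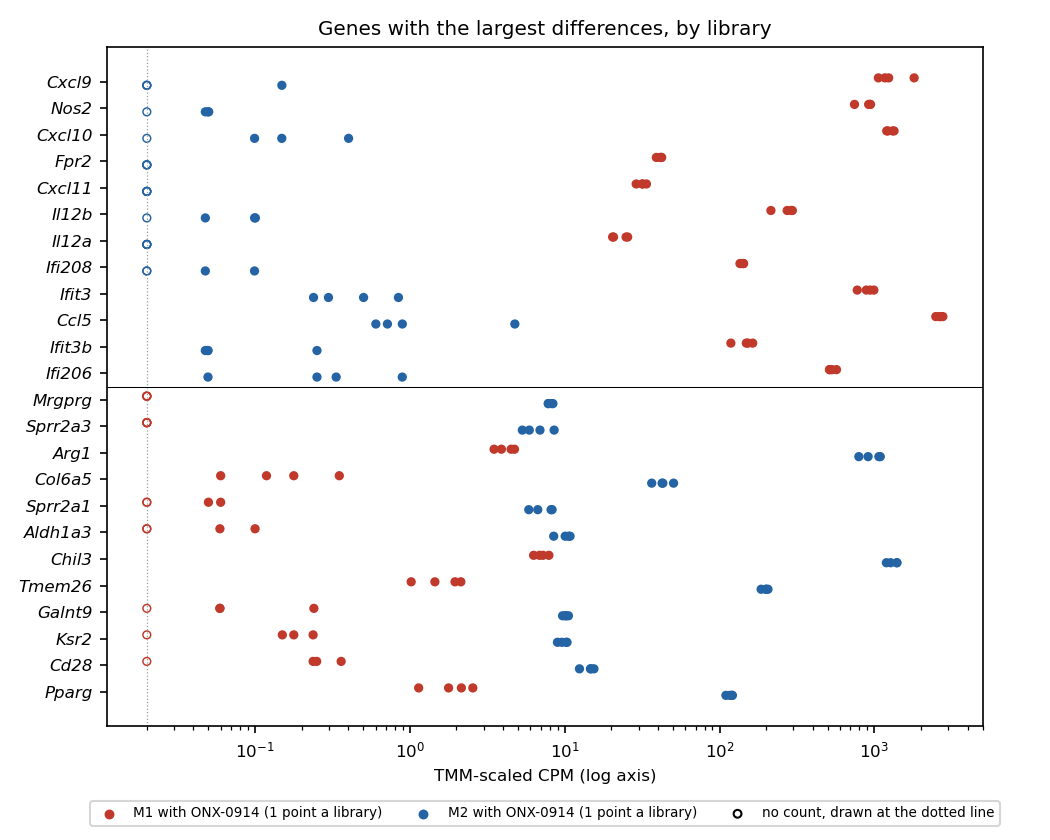
Level of the 12 genes with the largest differences on each side in each of the 8 libraries, in TMM-scaled CPM on a log axis, with red points for M1+ONX and blue points for M2+ONX and open points at the dotted line for libraries with no count. The groups do not overlap in any of the 24 genes, which was a condition of their selection. Ccl5 shows 1 M2+ONX library at 4.76 CPM above the other 3.

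Cytokine and chemokine genes lay on the M1 side nearly as a block. Of 17 tested inflammatory cytokine genes, 16 were higher in M1+ONX and 1 in M2+ONX, with a median log2 difference of 4.82, where 35.5% of all tested genes were higher in M1+ONX. Tnf was at 2263, 2145, 2319.5 and 2331 CPM in M1+ONX and 2, 2.31, 2.48 and 3.08 CPM in M2+ONX (log2 difference 9.87 ± 0.08, adjusted p = 3.44e-24). Il6 was at 78.7, 81, 89.8 and 97.1 against 0.143, 0.502, 0.199 and 0.595 CPM (log2 difference 7.92 ± 0.15, adjusted p = 3.54e-19). Il1b, the precursor that inflammasomes process, was at 32.5, 37.4, 47.7 and 43.8 CPM in M1+ONX with 2 counts over M2+ONX, a ratio of 1623-fold, with a 95% counting interval of 449 to 13410. None of these genes overlapped between the groups, and the M2+ONX libraries held them close to 0. The exception was Il10, the anti-inflammatory cytokine, at 0.3, 0.42, 0.237 and 0.237 CPM in M1+ONX and 3.34, 2.66, 3.08 and 2.68 CPM in M2+ONX (log2 difference -3.25 ± 0.26, adjusted p = 1.97e-09).

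Of 21 tested chemokine genes, 16 were higher in M1+ONX, 3 in M2+ONX and 2 were not called, with a median log2 difference of 4.78. Cxcl9, Cxcl10, Cxcl11 and Ccl5, described above, were among them. The genes on the M2 side were Ccl6 (163 ± 11.6 against 407 ± 34.4 CPM), Ccl24 (0.221 ± 0.169 against 2.15 ± 0.433 CPM), an eosinophil attractant, and Cxcl14 (4.15 ± 0.93 against 7.77 ± 0.575 CPM). Pf4 and Cxcl13 were not called, with log2 differences of 0.16 and 0.29. Among 25 receptors of cytokines and chemokines the sides were closer to even, with 14 higher in M1+ONX and 11 in M2+ONX. Il1rn, the secreted antagonist of the interleukin-1 receptor, was at 3503, 3284, 3338 and 3038 against 38, 40.6, 33.3 and 45.2 CPM (log2 difference 6.42 ± 0.08, adjusted p = 1.39e-21). Ccrl2, a chemerin-binding receptor, was at 934 ± 53.7 against 65.2 ± 2.46 CPM, and Cxcr4, the receptor of CXCL12, stood the other way at 4.74 ± 0.446 against 95.3 ± 10.7 CPM (log2 difference -4.30 ± 0.09, adjusted p = 2.18e-18).

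Every tested gene of both interferon lists was higher in M1+ONX. This held for 31 of 31 type I interferon-stimulated genes, with a median log2 difference of 5.28, and for 17 of 17 guanylate-binding proteins and immunity-related GTPases, with a median of 6.15. Without M2+ONX replicate 4 the counts were again 31 and 17, with medians of 5.66 and 6.21. Ifit2 was at 3121, 3252, 3192 and 3112 CPM in M1+ONX and 3.34, 3.77, 3.18 and 4.27 CPM in M2+ONX (log2 difference 9.79 ± 0.07, adjusted p = 8.45e-25). Gbp5, a GTPase that coats pathogen membranes and helps to assemble inflammasomes, was at 1637, 1532, 1570.3 and 1547 against 2.05, 2.16, 2.28 and 2.43 CPM (log2 difference 9.48 ± 0.06, adjusted p = 7.93e-25). Both genes were tightly grouped within M1+ONX, and the M2+ONX libraries had a few CPM. Ifi44 (248 ± 13.4 against 0.211 ± 0.237 CPM), Gbp4 (131 ± 18.9 against 0.123 ± 0.0632 CPM) and Iigp1 (428 ± 77.2 against 0.47 ± 0.284 CPM) belonged to the same pattern. Irf7, the transcription factor that amplifies the interferon response, was at 1824, 1915, 1946 and 1904 CPM in M1+ONX and 6.21, 9.34, 5.86 and 22.2 CPM in M2+ONX (log2 difference 7.47 ± 0.24, adjusted p = 1.42e-15), and its log2 difference was 8.09 without M2+ONX replicate 4.

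The 250 bases before the start of 4 genes higher in M1+ONX and 3 higher in M2+ONX show the letters that the pathways of the 2 stimuli are known to read. They come from RefSeq on build GRCm38.p6 and are written 5′ to 3′ in the direction of transcription. Capitals mark 4 motifs, searched on both strands: the interferon-stimulated response element (ISRE, GAAA and GAAA 2 bases apart), the gamma-activated site (GAS, TTC and GAA 3 bases apart) of the interferon-γ pathway, the wider-spaced STAT6 type (TTC and GAA 4 bases apart) and the κB type (GGGA and CC 4 bases apart) bound by NF-κB. Cxcl10, Ifit3, Gbp5 and Psmb8 were taken for the M1 side, and Tmem26, Pdcd1lg2 and Retnla for the M2 side, as examples that hold such letters, chosen with the matches known. The windows are Cxcl10 (chr5:92348890-92349139, minus strand), Ifit3 (chr19:34583279-34583528, plus strand), Gbp5 (chr3:142496684-142496933, plus strand), Psmb8 (chr17:34197945-34198194, plus strand), Tmem26 (chr10:68723496-68723745, plus strand), Pdcd1lg2 (chr19:29410669-29410918, plus strand) and Retnla (chr16:48842359-48842608, plus strand).
Cxcl10: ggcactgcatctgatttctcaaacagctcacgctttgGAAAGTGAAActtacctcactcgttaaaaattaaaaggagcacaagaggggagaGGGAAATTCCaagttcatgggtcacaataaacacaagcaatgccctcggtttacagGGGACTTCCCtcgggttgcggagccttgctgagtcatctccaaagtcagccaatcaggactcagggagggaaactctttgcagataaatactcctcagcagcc
Ifit3: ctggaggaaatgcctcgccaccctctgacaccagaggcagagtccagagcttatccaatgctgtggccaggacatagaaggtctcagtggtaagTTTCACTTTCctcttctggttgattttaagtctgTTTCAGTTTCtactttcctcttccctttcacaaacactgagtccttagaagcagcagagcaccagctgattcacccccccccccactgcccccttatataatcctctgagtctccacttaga
Gbp5: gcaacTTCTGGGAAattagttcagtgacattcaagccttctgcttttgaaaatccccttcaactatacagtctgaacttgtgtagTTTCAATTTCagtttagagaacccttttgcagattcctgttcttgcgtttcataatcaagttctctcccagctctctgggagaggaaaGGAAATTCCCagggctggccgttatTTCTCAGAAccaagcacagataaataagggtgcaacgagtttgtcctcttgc
Psmb8: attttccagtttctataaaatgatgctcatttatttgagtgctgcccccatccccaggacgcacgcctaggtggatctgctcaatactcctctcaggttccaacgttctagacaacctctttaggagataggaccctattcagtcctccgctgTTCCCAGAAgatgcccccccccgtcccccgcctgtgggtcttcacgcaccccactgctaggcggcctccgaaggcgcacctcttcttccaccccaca
Tmem26: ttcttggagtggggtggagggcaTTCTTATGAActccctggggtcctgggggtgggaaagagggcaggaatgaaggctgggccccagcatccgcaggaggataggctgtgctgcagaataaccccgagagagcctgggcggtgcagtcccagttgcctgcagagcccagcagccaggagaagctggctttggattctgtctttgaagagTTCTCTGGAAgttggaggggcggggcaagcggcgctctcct
Pdcd1lg2: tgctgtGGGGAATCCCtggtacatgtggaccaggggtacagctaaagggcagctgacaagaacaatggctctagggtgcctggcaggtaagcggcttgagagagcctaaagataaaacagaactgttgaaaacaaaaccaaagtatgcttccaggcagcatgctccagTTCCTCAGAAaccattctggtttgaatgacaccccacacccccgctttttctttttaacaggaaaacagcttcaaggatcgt
Retnla: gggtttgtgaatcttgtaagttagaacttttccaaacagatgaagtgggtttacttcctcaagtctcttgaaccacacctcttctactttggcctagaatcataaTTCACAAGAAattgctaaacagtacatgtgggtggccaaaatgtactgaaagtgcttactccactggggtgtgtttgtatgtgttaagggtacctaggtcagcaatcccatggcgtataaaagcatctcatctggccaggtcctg

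The Cxcl10 window held an ISRE starting at position -213 from the gene's start and κB letters at -159 and -103. Ifit3 held an ISRE at -156 and another at -122. Gbp5 held an ISRE at -165, GAS letters at -245 and -52 and κB letters at -77, and Psmb8 held GAS letters at -97. On the M2 side, Tmem26 held STAT6-type letters at -227 and -41, Pdcd1lg2 at -82, with κB letters at -244, and Retnla at -145. Over all 9884 tested genes with a promoter entry, 2.87% of windows held an ISRE, 5.96% GAS letters, 4.69% STAT6-type letters and 22.5% κB letters. Among the 494 genes called at least 2 log2 units higher in M1+ONX these shares were 14%, 10.9%, 7.29% and 26.5%. Among the 374 on the M2 side they were 1.87%, 5.61%, 6.42% and 21.7%. An ISRE stood in 10 of 11 windows of the guanylate-binding and immunity-related GTPase genes and in 9 of 22 windows of the type I interferon-stimulated genes. STAT6-type letters stood in 3 of 18 windows of the IL-4-induced genes, and the windows of Chil3, Col6a5, Ksr2 and Pparg held none. One stretch of bases could count for more than 1 motif, and a match of letters is a description, not a binding site.

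The signalling genes upstream were shifted the same way, with a few exceptions. Of 19 tested JAK-STAT genes, 15 were higher in M1+ONX, 3 in M2+ONX and 1 was not called. Stat2 was at 426 ± 12 against 23.5 ± 5.47 CPM, and Socs3, a feedback inhibitor of cytokine receptors, at 161 ± 14.1 against 15.2 ± 0.907 CPM. Stat6, the factor of the IL-4 pathway, was at 192, 183, 192 and 191 against 175, 182, 181 and 168 CPM, a log2 difference of 0.13 with a 95% interval of 0.05 to 0.21. The Stat6 libraries lay within a narrow band on both sides. Cish, a feedback inhibitor that STAT5 and STAT6 induce, was higher in M2+ONX at 7.49 ± 1.46 against 31.5 ± 1.45 CPM (log2 difference -2.04 ± 0.10, adjusted p = 1.01e-12).

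Of 8 tested interferon regulatory factors, 6 were higher in M1+ONX. Irf1, which interferon-γ is known to induce, was at 928, 739, 796 and 769.7 CPM in M1+ONX and 28, 27.6, 25.4 and 26 CPM in M2+ONX (log2 difference 4.95 ± 0.07, adjusted p = 7.18e-21). Irf4, which IL-4 is known to induce, was the member on the other side, at 1.3, 1.5, 1.19 and 1.54 against 30.6, 31.2, 30.9 and 33.7 CPM (log2 difference -4.49 ± 0.10, adjusted p = 6.59e-18). For both genes the libraries of the groups were fully separate, in opposite directions. Of 18 genes of NF-κB subunits and their feedback targets, 17 were higher in M1+ONX and Tnip3 was not called (36 ± 4.49 against 36.2 ± 9.6 CPM), with a median log2 difference of 2.12. Without M2+ONX replicate 4 all 18 were higher in M1+ONX, Tnip3 included. Traf1, an adaptor of TNF receptors, was at 181 ± 16.6 against 3.94 ± 0.864 CPM, and the inhibitor genes Nfkbie and Nfkbia at 130.2 ± 6.84 against 6.25 ± 0.462 CPM and 343 ± 16.8 against 26.8 ± 3.29 CPM. κB letters stood in 8 of 15 windows of this list (53.3%), in 9 of 18 of the IL-4-induced genes (50%) and in 22.5% of all windows.

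Among 19 pattern recognition receptors, 15 were higher in M1+ONX and 4 in M2+ONX. Clec4e (Mincle), a receptor of mycobacterial glycolipids, was at 4152, 4416, 4458 and 4589 CPM in M1+ONX and 39.3, 43.9, 39.3 and 93.7 CPM in M2+ONX (log2 difference 6.38 ± 0.22, adjusted p = 2.61e-15), with replicate 4 again the high M2+ONX library. Nlrp3, an inflammasome sensor, was at 209 ± 15.3 against 2.92 ± 0.169 CPM and Tlr9, a DNA sensor, at 61.5 ± 7.66 against 1.51 ± 0.3 CPM. Clec7a (Dectin-1), the β-glucan receptor, stood the other way at 115, 99.5, 104 and 96.1 against 995, 1026, 995 and 983 CPM (log2 difference -3.24 ± 0.05, adjusted p = 3.34e-20), with no overlap between the groups.

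Antigen presentation genes were higher on the M1 side. All 15 tested class I genes were higher in M1+ONX, with a median log2 difference of 2.31. Tap1, 1 subunit of the peptide transporter of the endoplasmic reticulum, was at 829.8, 755, 789.6 and 802 CPM in M1+ONX and 33.8, 32.6, 33 and 37.9 CPM in M2+ONX (log2 difference 4.56 ± 0.05, adjusted p = 9.41e-22), and its transcriptional activator Nlrc5 at 382 ± 6.76 against 18.7 ± 1.29 CPM. The class I genes H2-Q6 and H2-Q7 are close copies, and their values (93.1 ± 2.83 against 6.55 ± 1.18 CPM and 80.2 ± 9.75 against 9.28 ± 1.55 CPM) could share reads. Of 11 class II genes, 9 passed the filter on low counts, and 8 of these were higher in M1+ONX and Ctss was not called. H2-Ab1 was at 114, 99.97, 102 and 94.5 against 6.78, 7.08, 8.24 and 7.74 CPM (log2 difference 3.81 ± 0.07, adjusted p = 3.95e-19). H2-Aa was at 46.7 ± 3.07 against 5.39 ± 0.42 CPM, and the master regulator Ciita at 15.2 ± 2.52 against 0.793 ± 0.25 CPM.

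Of 20 costimulatory and checkpoint genes, 14 were higher in M1+ONX and 6 in M2+ONX. Cd40 was at 1282, 1068, 1120 and 1068 CPM in M1+ONX and 3.39, 3.67, 3.63 and 3.42 CPM in M2+ONX (log2 difference 8.36 ± 0.08, adjusted p = 6.36e-23). Cd86 was at 335 ± 22.4 against 8.2 ± 1.32 CPM and Cd80, its partner in engaging CD28, at 15.4 ± 1.25 against 5.93 ± 0.519 CPM, with log2 differences of 5.38 and 1.41. Pdcd1lg2 (PD-L2), whose window is among those printed, was at 0.7, 0.6, 0.593 and 0.771 against 12.5, 13.3, 11.8 and 13.8 CPM (log2 difference -4.23 ± 0.15, adjusted p = 4.66e-15). Cd40 and Pdcd1lg2 therefore lay at opposite ends of this list. The 6 IgG Fc receptor genes were divided evenly. Fcgr1, the high-affinity activating receptor, was at 64.9 ± 9.39 against 2.12 ± 0.49 CPM, whereas Fcgr2b, the inhibitory receptor, was at 61.5 ± 8.48 against 805 ± 22.4 CPM (log2 difference -3.69 ± 0.07, adjusted p = 6.45e-19).

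On the M2 side the largest gaps were in arginase, chitinase-like proteins and several genes of low level. Arg1 (ENSMUSG00000019987, chromosome 10, 24915221 to 24927484), which takes arginine away from nitric oxide synthesis, was at 3.9, 4.74, 4.51 and 3.5 CPM in M1+ONX and 910.5, 1092, 1069 and 793 CPM in M2+ONX (log2 difference -7.83 ± 0.12, adjusted p = 1.1e-20). Chil3 (ENSMUSG00000040809, chromosome 3, 106147554 to 106167564), the chitinase-like protein Ym1, was at 7.9, 6.3, 6.88 and 7.23 against 1274, 1396, 1397 and 1195 CPM (log2 difference -7.50 ± 0.07, adjusted p = 7.42e-23). Its near copy Chil4 had no count in M1+ONX and 1.91, 3.37, 3.28 and 3.62 CPM in M2+ONX, at least 71.1-fold higher, and the copies could share reads. Nos2 and Arg1, the enzymes that compete for arginine, lay in opposite directions, both without overlap, which was a condition of their selection among the largest differences.

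Mrgprg, an orphan receptor of the Mas-related family, had no count in M1+ONX and was at 7.83, 8.39, 7.85 and 8.24 CPM in M2+ONX, at least 189-fold higher. Sprr2a3, a small proline-rich protein known from epithelia, also had no count in M1+ONX and was at 6.92, 5.32, 8.54 and 5.9 CPM in M2+ONX, at least 157-fold higher. Its near copy Sprr2a1 was at 8.16, 8.29, 5.86 and 6.7 CPM, with 2 counts over M1+ONX and a ratio of 256-fold, with a 95% counting interval of 70.4 to 2115. Aldh1a3, which makes retinoic acid, was at 10.6, 8.49, 10.8 and 10.1 CPM, with 3 counts over M1+ONX and a ratio of 235-fold, with a 95% counting interval of 80.1 to 1141. In these 4 genes the M2+ONX level was low and every library of the group held it. Col6a5, a collagen VI chain, was at 0.35, 0.06, 0.178 and 0.119 against 43, 36.5, 42.6 and 50.5 CPM (log2 difference -7.79 ± 0.20, adjusted p = 3.56e-17). Tmem26, a membrane protein, was at 1.45, 1.02, 1.96 and 2.13 against 186, 205, 199.9 and 199 CPM (log2 difference -6.88 ± 0.09, adjusted p = 2.82e-21).

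Pparg, the lipid-sensing nuclear receptor that IL-4 is known to engage in macrophages, was at 2.15, 1.14, 2.55 and 1.78 CPM in M1+ONX and 116, 120.0, 121 and 109.9 CPM in M2+ONX (log2 difference -5.90 ± 0.10, adjusted p = 3.97e-20). Cd28, a costimulatory receptor best known from T cells, was at 0.25, 0.36, 0.237 and 0 against 14.7, 14.8, 15.4 and 12.5 CPM (log2 difference -6.0 ± 0.24, adjusted p = 2.75e-14), in libraries where Cd3e had 0.0148 and 0.025 CPM. The glycosyltransferase gene Galnt9 (0.0896 ± 0.104 against 10.1 ± 0.364 CPM) and the MAP kinase scaffold gene Ksr2 (0.141 ± 0.101 against 9.78 ± 0.633 CPM) completed the 12. All 4 genes were separate between the groups, as their selection required.

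The list of IL-4-induced genes leaned to the M2 side but not without exceptions. Of 32 members, 28 passed the filter. Of these, 23 were higher in M2+ONX and 5 in M1+ONX, with a median log2 difference of -1.92, where 37.1% of all tested genes were higher in M2+ONX. Mrc1 (CD206), the mannose receptor, was at 25.8, 35.4, 30.1 and 27.4 CPM in M1+ONX and 336, 355, 373 and 335 CPM in M2+ONX (log2 difference -3.54 ± 0.07, adjusted p = 1.02e-18). Retnla (FIZZ1), among the best known M2 genes, was at only 0.2, 0.3, 0.534 and 0.652 against 2.39, 2.86, 1.89 and 1.39 CPM (log2 difference -2.32 ± 0.34, adjusted p = 5.16e-06). Mgl2 and Clec10a, galactose-type lectins, were at 0.0893 ± 0.0767 against 4.84 ± 0.315 CPM and 0.281 ± 0.176 against 4.05 ± 0.681 CPM. The 5 members higher in M1+ONX were Ch25h (54.5 ± 1.85 against 9.6 ± 0.21 CPM), which makes an oxysterol and is also known as an interferon target, Ccl22 (15.9 ± 3.4 against 2.99 ± 1.01 CPM), Slc7a2 (1684 ± 52.3 against 723 ± 56.8 CPM), an arginine transporter, Il4ra (84 ± 4.25 against 60.2 ± 6.28 CPM), the IL-4 receptor chain, and Tgm2 (302 ± 11.9 against 276 ± 22.2 CPM).

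The lists of surface receptors held members on both sides. Of 17 C-type lectin receptors, 9 were higher in M1+ONX and 8 in M2+ONX. Over all tested genes, 35.5% were higher in M1+ONX and 37.1% in M2+ONX. Mgl2 and Clec10a were among those on the M2 side, and Clec4e had the largest difference on the M1 side. Of 18 scavenger and apoptotic cell receptors, 10 were higher in M1+ONX and 8 in M2+ONX. Axl, a TAM receptor for dying cells, was at 809, 799, 832 and 769.9 CPM in M1+ONX and 64.5, 64.2, 65.9 and 69 CPM in M2+ONX (log2 difference 3.63 ± 0.04, adjusted p = 1.24e-21). Cd36, which takes up oxidized lipoproteins, was at 1085, 1142, 1187 and 999.6 against 3769.8, 3798, 3871 and 3482 CPM (log2 difference -1.73 ± 0.05, adjusted p = 3.27e-16). Axl and Cd36 were each separate between the groups, in opposite directions.

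Of 19 genes of resident peritoneal macrophages, 6 were higher in M1+ONX, 9 in M2+ONX and 4 were not called. Over all tested genes, 35.5% and 37.1% were higher on these sides, which serves also for the transcription factor and matrix lists that follow. Timd4 (TIM-4), a phosphatidylserine receptor, was at 6.61 ± 0.421 against 0.295 ± 0.166 CPM, and the coagulation factor gene F10 at 1510.2 ± 63 against 305 ± 11 CPM. Of 22 transcription factors of macrophage state, 7 were higher in M1+ONX, 10 in M2+ONX and 5 were not called. Epas1 (HIF-2α) was at 14.2, 15.8, 17 and 17 against 261, 278, 275 and 246 CPM (log2 difference -4.03 ± 0.06, adjusted p = 1.1e-20) and Bhlhe40 at 105 ± 3.12 against 563 ± 14.2 CPM. For these M2-side factors no M1+ONX library reached the lowest M2+ONX library. Among 23 matrix proteases, inhibitors and matrix proteins, 12 were higher in M1+ONX, 8 in M2+ONX and 3 were not called. Mmp19 was at 46.8, 43.2, 41.9 and 42.9 against 649.8, 652, 631 and 568 CPM (log2 difference -3.81 ± 0.05, adjusted p = 7.73e-21).

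Lipid handling genes were on balance lower on the M1 side. Of 24 LXR and PPARγ genes, 5 were higher in M1+ONX, 14 in M2+ONX and 5 were not called, with a median log2 difference of -0.48. Fabp4, a fatty acid carrier and PPARγ target, was at 34.2, 34.8, 34.3 and 38.2 CPM in M1+ONX and 283, 291, 269 and 274 CPM in M2+ONX (log2 difference -2.95 ± 0.05, adjusted p = 3.61e-20). The cholesterol exporters parted, with Abcg1 at 39 ± 3.38 against 177 ± 5.2 CPM and Abca1 at 83.9 ± 8.29 against 39.9 ± 6.38 CPM. Of 20 cholesterol synthesis genes, 3 were higher in M1+ONX, 12 in M2+ONX and 5 were not called. Dhcr7, which catalyses the last step of cholesterol synthesis, stood out at 3.85, 3.24, 3.85 and 4.21 against 85.1, 88.1, 87.6 and 80.5 CPM (log2 difference -4.46 ± 0.07, adjusted p = 2.71e-20), while Mvd differed by -0.80. Dhcr7 did not overlap between the groups.

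Proteasome genes of every class were higher in M1+ONX, with the inhibitor on both sides. All 5 tested genes of the immunoproteasome and its activator PA28 were higher, with a median log2 difference of 2.60, as were all 14 of the 20S core, with a median of 0.65, and all 18 of the 19S regulatory particle, with a median of 0.53. Psmb8, the subunit against which ONX-0914 is most selective, was at 235, 249, 246 and 262 CPM in M1+ONX and 38.5, 46.2, 42.3 and 39.5 CPM in M2+ONX (log2 difference 2.60 ± 0.05, adjusted p = 1.35e-18). Psmb9 was at 148, 146, 146 and 149.6 against 14.8, 16.9, 15.3 and 16.9 CPM (log2 difference 3.23 ± 0.05, adjusted p = 2.12e-20) and Psmb10 at 387 ± 30.0 against 174 ± 6.68 CPM (log2 difference 1.18 ± 0.05, adjusted p = 8.92e-14). The groups were separate in all 3 subunits, as in 66.2% of all tested genes.

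The constitutive counterparts differed less. Psmb5 was at 311, 279, 284 and 285 CPM in M1+ONX and 238, 249.8, 246 and 216 CPM in M2+ONX (log2 difference 0.32 ± 0.05, adjusted p = 1.03e-05). Psmb6 was at 634 ± 14.1 against 319 ± 13 CPM (log2 difference 1.02 ± 0.04, adjusted p = 2.24e-14) and Psmb7 at 226 ± 16.5 against 148 ± 8.9 CPM (log2 difference 0.64 ± 0.05, adjusted p = 2.73e-09). Psmb5 showed the smallest of the 6 differences, with the groups still apart. Outside the catalytic subunits, Psma5 was at 345 ± 9.99 against 195 ± 10.8 CPM and Psmd11 at 355 ± 2.22 against 213 ± 6.59 CPM. Without the inhibitor Psma5 had been at 195 ± 14.8 in M1 and 52.3 ± 4.35 CPM in M2, and Psmd11 at 129 ± 5.93 and 56.3 ± 2.33 CPM.

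Of 11 genes of NRF1, NRF2 and their regulators, 8 were higher in M1+ONX, 2 in M2+ONX and 1 was not called. Sqstm1 (p62), which carries ubiquitinated proteins to autophagy and releases NRF2 from KEAP1, was at 3510.5, 3544, 3612 and 3619 CPM in M1+ONX and 1502, 1513, 1496 and 1417 CPM in M2+ONX (log2 difference 1.30 ± 0.04, adjusted p = 2.12e-16). Nfe2l1 (NRF1) was at 471, 523, 502 and 486 against 229, 240.0, 232 and 234 CPM (log2 difference 1.11 ± 0.04, adjusted p = 9.16e-15). Keap1 was at 142, 135, 141 and 138 against 72.3, 69.8, 68.3 and 63 CPM (log2 difference 1.05 ± 0.05, adjusted p = 9.77e-14). All 3 were separate between the groups, as were 66.2% of all tested genes. Nfe2l2 (NRF2) was at 329 ± 13.4 against 259 ± 6.47 CPM with a log2 difference of 0.37. The genes on the M2 side were Ddi2 (42.1 ± 2.57 against 85.8 ± 1.44 CPM), the protease that activates NRF1, and Bach1 (94.1 ± 6.02 against 150.1 ± 0.579 CPM), a repressor of antioxidant genes.

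Of 27 antioxidant targets of NRF2, 18 were higher in M1+ONX, 8 in M2+ONX and 1 was not called, with a median of 0.75. Prdx1, a peroxiredoxin, was at 5653, 5064, 4903 and 4977 CPM in M1+ONX and 1347, 1402, 1282 and 1413 CPM in M2+ONX (log2 difference 1.95 ± 0.05, adjusted p = 3.67e-17). Hmox1, heme oxygenase, was at 598 ± 19.9 against 333 ± 12.2 CPM (log2 difference 0.87 ± 0.04, adjusted p = 3.16e-13). Nqo1 was not called, at 8.5, 7.38, 9.01 and 7.76 against 7.83, 7.48, 8.64 and 7.79 CPM, and its log2 difference of 0.07 had a 95% interval of -0.14 to 0.28. The Nqo1 libraries overlapped. Gsto1, a glutathione transferase, was higher in M2+ONX (61.9 ± 4.05 against 141 ± 4.32 CPM).

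Of 22 cytosolic heat shock genes, 16 were higher in M1+ONX, 2 in M2+ONX and 4 were not called, with a median of 0.67. The inducible Hsp70 genes Hspa1a and Hspa1b are near copies that could share reads, and were at 65 ± 3.61 against 17.6 ± 1.96 CPM and 131 ± 9.17 against 35.9 ± 1.87 CPM. Of 22 genes of the ATF4 stress response, 16 were higher in M1+ONX, 2 in M2+ONX and 4 were not called, with a median of 0.78. Chac1, which degrades glutathione, was at 20.2, 18.4, 20.1 and 19.6 CPM in M1+ONX and 7.49, 7.43, 7.2 and 5.85 CPM in M2+ONX (log2 difference 1.51 ± 0.09, adjusted p = 1.18e-11). Ppp1r15a (GADD34), which reverses the translation block, was at 228 ± 3.63 against 84.9 ± 2.19 CPM. Atf5 and Atf3 were the members on the M2 side, at 61.7 ± 2.59 against 114 ± 10.5 CPM and 376 ± 17.3 against 502 ± 21.9 CPM. The unfolded protein response of the endoplasmic reticulum leaned the other way. Of 21 tested genes, 4 were higher in M1+ONX, 14 in M2+ONX and 3 were not called, with a median of -0.29. Pdia4, a disulfide isomerase, was at 57.4, 60.9, 62 and 55.8 against 234, 231, 237 and 220.0 CPM (log2 difference -1.94 ± 0.04, adjusted p = 7.16e-18), whereas the chaperone gene Hspa5 (BiP) was at 997 ± 11.2 against 630 ± 13.1 CPM.

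Within energy metabolism, single enzymes differed widely. The 14 enzymes of arginine, nitric oxide and itaconate split into 7 and 7. Acod1, which makes itaconate from a TCA cycle intermediate, was at 3144, 3104, 3324 and 3168 CPM in M1+ONX and 3.48, 5.98, 5.41 and 13.4 CPM in M2+ONX (log2 difference 8.85 ± 0.20, adjusted p = 7.01e-18), with M2+ONX replicate 4 the highest of its group. Of 22 glycolysis genes, 11 were higher in M1+ONX, 7 in M2+ONX and 4 were not called. Slc2a6, a hexose transporter, was at 629 ± 25.2 against 23.8 ± 4.03 CPM and Hif1a at 374 ± 28.3 against 95.5 ± 2.79 CPM. Gapdh is left without a reading because its libraries fell into 2 separate levels, as described among the observations. Of 24 TCA cycle enzymes, 4 were higher in M1+ONX, 13 in M2+ONX and 7 were not called. Idh1, the cytosolic isocitrate dehydrogenase kept on that list, was at 29.5, 31.2, 29.7 and 31.4 against 205, 201, 202 and 178 CPM (log2 difference -2.66 ± 0.05, adjusted p = 6.19e-19), and the mitochondrial Idh2 at 12.7 ± 0.884 against 39.4 ± 4.43 CPM (log2 difference -1.60 ± 0.08, adjusted p = 2.37e-12). Of 30 nuclear-encoded respiratory chain subunits, 13 were higher in M1+ONX, 9 in M2+ONX and 8 were not called, with no called subunit except Cycs past 1 log2 unit (147 ± 4.22 against 58.5 ± 1.35 CPM). That split was 7 and 9 when all 24 libraries were scaled together. Over all tested genes of the 8 libraries, 35.5% were higher in M1+ONX and 37.1% in M2+ONX.

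Iron and eicosanoid genes also differed. Tfrc, the transferrin receptor that imports iron, was at 19.6, 22.6, 22.5 and 19.2 CPM in M1+ONX and 323, 342, 354 and 343 CPM in M2+ONX (log2 difference -3.99 ± 0.06, adjusted p = 6.71e-21). Fth1, the ferritin heavy chain that stores it, was at 19138, 19032, 19614 and 19309 against 8185, 8233, 8089 and 7974 CPM (log2 difference 1.27 ± 0.04, adjusted p = 1.63e-16). Tfrc and Fth1 thus lay on opposite sides, with no overlap in either. Of 13 iron genes, 8 were higher in M1+ONX, 4 in M2+ONX and 1 was not called. Of 14 genes of prostaglandin and leukotriene synthesis, 4 were higher in M1+ONX, 9 in M2+ONX and 1 was not called. Ptgs2 (COX-2) was at 507, 547, 556 and 536 against 20.8, 20.5, 18.8 and 22.8 CPM (log2 difference 4.72 ± 0.06, adjusted p = 9.41e-22) and Ptges, the next enzyme on the way to prostaglandin E, at 256 ± 21.8 against 30.2 ± 1.55 CPM. Alox5, the first enzyme of the leukotriene branch, was low on both sides (0.114 ± 0.0502 against 0.96 ± 0.0947 CPM, log2 difference -2.98). All 8 called genes among 9 oxidase and superoxide dismutase genes were higher in M1+ONX, led by Sod2 (1096 ± 18.3 against 84.9 ± 9.52 CPM) and Cybb, the catalytic subunit of the phagocyte oxidase, at 5002, 5196, 5044 and 5046 against 517, 548, 520.5 and 603 CPM (log2 difference 3.24 ± 0.05, adjusted p = 2.68e-20).

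Among 24 cell death and inflammasome genes, 18 were higher in M1+ONX, 4 in M2+ONX and 2 were not called. Casp4 (caspase-11), the sensor of cytosolic LPS, was at 334, 299, 309 and 328 CPM in M1+ONX and 21.6, 18.7, 20.6 and 28.2 CPM in M2+ONX (log2 difference 3.86 ± 0.08, adjusted p = 3.3e-18). Bcl2l11 (BIM), which promotes apoptosis, was at 18.8, 14.9, 17 and 17.1 against 44.3, 43.7, 44 and 37.5 CPM (log2 difference -1.29 ± 0.08, adjusted p = 1.2e-11), and the survival gene Bcl2a1d, one of several close copies, at 291 ± 15.6 against 26.8 ± 4 CPM. Of 26 cell cycle genes, 7 were higher in M1+ONX, 13 in M2+ONX and 6 were not called. Cdkn1a (p21), an inhibitor of the cycle, was at 349 ± 12.4 against 120.5 ± 3.34 CPM and Rrm2, needed for DNA synthesis, at 3.93 ± 0.565 against 8.76 ± 0.717 CPM. The cyclin genes Ccnd2 and Ccnd1, which promote the cycle, were also higher in M1+ONX. Their log2 differences without M2+ONX replicate 4 were 2.27 and 1.38, beside 1.55 for Cdkn1a and -1.11 for Rrm2, so the named genes give the cycle no single direction. Of 20 AP-1 and early response genes, 12 were higher in M1+ONX, 6 in M2+ONX and 2 were not called. Batf2 was at 98.6 ± 7.72 against 1.86 ± 0.51 CPM, and Batf3 the other way at 0.97 ± 0.263 against 14.6 ± 1.86 CPM.

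Of 18 complement genes, 10 were higher in M1+ONX, 7 in M2+ONX and 1 was not called. Cfb, factor B of the alternative pathway, was at 31.9, 30.7, 28.6 and 28.3 CPM in M1+ONX and 0.0955, 0.553, 0.248 and 0.347 CPM in M2+ONX (log2 difference 6.60 ± 0.17, adjusted p = 2.92e-17), and Cd55, which restrains complement on the cell surface, at 7.95 ± 0.761 against 25.6 ± 1.38 CPM. Autophagy and lysosome genes were divided. Of 26 autophagy genes, 10 were higher in M1+ONX, 15 in M2+ONX and 1 was not called, and of 29 lysosomal genes, 10 were higher in M1+ONX, 14 in M2+ONX and 5 were not called, where 35.5% and 37.1% of all tested genes were higher on these sides. With DESeq2 size factors the lysosomal split was 12 and 13. Lipa, the lysosomal acid lipase, was at 454 ± 10.6 against 1584 ± 31 CPM and Ctsc, cathepsin C, at 619 ± 30.6 against 171 ± 3.93 CPM. Atg7, needed to form autophagosomes, was at 41.5 ± 1.61 against 99.3 ± 6.6 CPM. The groups did not overlap in any of these named genes, as in 66.2% of all tested genes.

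**Figure D3:**
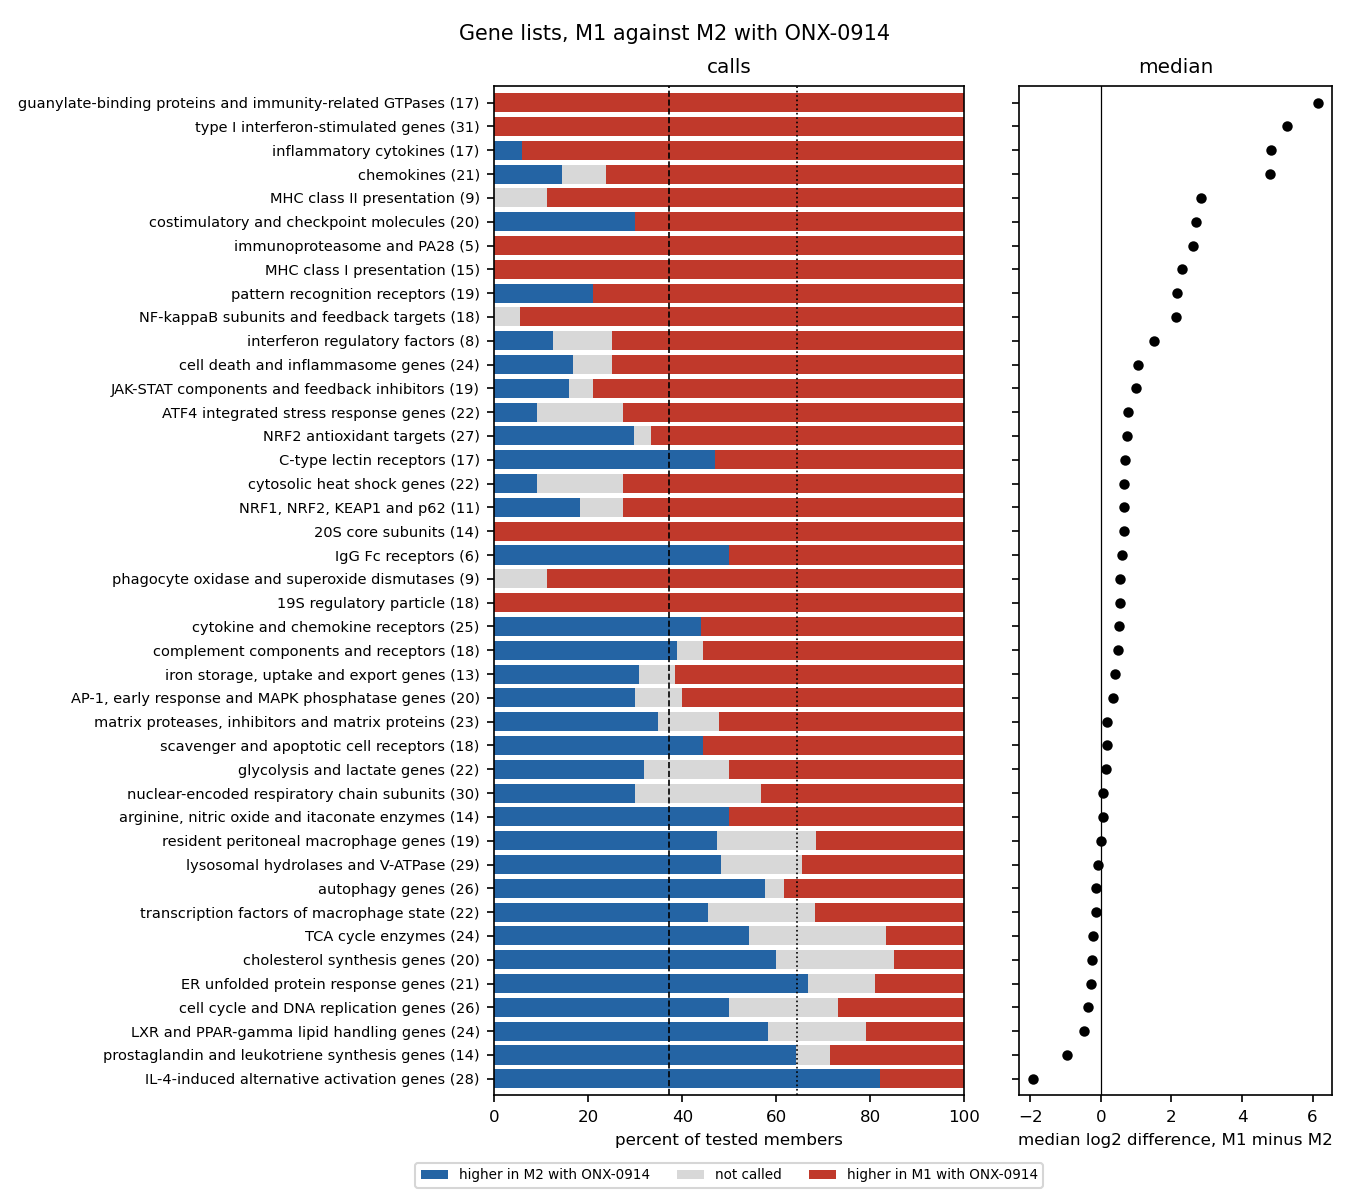
Left, percent of the tested members of each of 42 gene lists (number tested in brackets) that were called higher in M2+ONX (blue), not called (grey) or higher in M1+ONX (red), with a dashed line where the blue bar would end for all tested genes (37.1%) and a dotted line where the red bar would begin if it had the share of all tested genes (35.5%). Right, the median log2 difference of each list, which runs from 6.15 for guanylate-binding proteins and immunity-related GTPases down to -1.92 for IL-4-induced genes.

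For a part of the transcriptome the states were close. The 95% interval of the log2 difference lay wholly within 0.5 of 0 for 4567 genes (33.77%), and 2401 of these were still called. In all, 3696 of the called genes differed by less than 0.5 log2 units. Stat6 and Nqo1 are examples of small differences, the one called and the other not. At the other extreme, 15 genes with at least 1 CPM in M1+ONX had no count in M2+ONX, and 7 genes with at least 1 CPM in M2+ONX had none in M1+ONX.

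The levels in unpolarized M0 cells with the inhibitor show on which side a gene had moved away from them, as a description. Nos2 had no count in M0 with ONX-0914, and Arg1 was at 58 ± 7.59 CPM there, between its values in M1+ONX and M2+ONX. Chil3 was at 6.38 ± 0.595 CPM in M0 with ONX-0914, near M1+ONX. Pparg was at 60.1 ± 2.76 CPM and Dhcr7 at 38.7 ± 1.22 CPM, again between the polarized states. Cd28 (26.5 ± 2.7 CPM) and Cxcr4 (115 ± 11.5 CPM) were highest in the M0 cells, above M2+ONX. Idh1 (271 ± 8.25 CPM) was as well. Cybb was at 1172 ± 56.1 CPM, above M2+ONX and below M1+ONX.

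The second question was whether the gap between the states with the inhibitor differed from the gap without it. Of 13319 genes tested in both, with M1 replicate 2 left out of the comparison without inhibitor, 8178 were called in the same direction, which is 83.93% of the 9744 called with the inhibitor and 87.28% of the 9370 called without. Another 104 were called in opposite directions, 1462 only with and 1088 only without the inhibitor, and those single-sided calls are no test of a difference. The test of the difference itself, over 16 libraries and 14177 genes, called 1532 genes (10.8%). Of these, 885 (6.24%) had a positive difference, meaning that M1 stood higher relative to M2 with the inhibitor than without it, and 647 (4.56%) a negative one.

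The balance of positive and negative calls depended on the scaling and on M1 replicate 2. With DESeq2 size factors the split was 578 and 856 (4.08% and 6.04% of genes), and without M1 replicate 2 it was 770 and 1807 (17.9% of genes called). The median difference over all genes was 0.046 in the first fit, -0.015 with size factors and -0.06 without the library, a shift of 0.106, so small differences carry no direction. The 3 fits called 1186 genes (8.37%) with the same sign, 542 positive and 644 negative. Both gaps were measured for 1172 of them. Of the 545 that were higher in M1 with and without inhibitor, the gap was smaller with it for 419 and larger for 126. Of the 394 that were higher in M2 in both, it was smaller for 279 and larger for 115. The remaining 233 changed side, and for 79 genes the gaps with and without inhibitor were called in opposite directions.

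**Figure D4:**
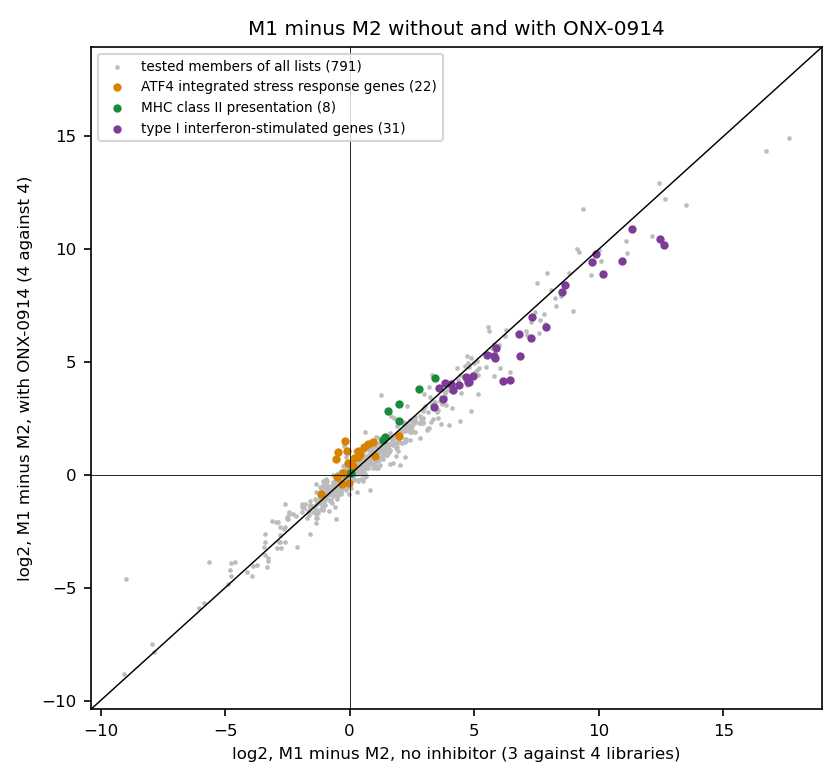
Log2 difference M1 minus M2 with ONX-0914 (vertical axis) against the same difference without inhibitor, M1 replicate 2 left out (horizontal axis), for 791 genes of the lists, 1 point a gene, with a line where both are equal. The 22 ATF4 genes and the 8 class II genes are coloured, with 18 and 8 of them above the line, and 29 of the 31 type I interferon-stimulated genes lie below it (24 without M2+ONX replicate 4), where 319 of the 791 genes lie above and 472 below.

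Genes of the ATF4 stress response had mainly positive differences. Of 22, 16 were called positive and none negative, with a median difference of 0.53, where 6.24% of all genes were positive. Without M1 replicate 2 the count was again 16, where 5.35% of all genes were positive, with both libraries that stood apart left out 17, where 10.9% were, and with size factors 15, where 4.08% were. Chac1 had the largest of them. It was at 10, 14.3, 11 and 12 CPM in M1 and 12, 12.5, 12.8 and 12.4 CPM in M2 without the inhibitor, and at 20.2, 18.4, 20.1 and 19.6 CPM in M1+ONX and 7.49, 7.43, 7.2 and 5.85 CPM in M2+ONX. Without the inhibitor M1 and M2 overlapped through M1 replicate 2, the high one, and with it they were apart. Chac1 was higher in M1+ONX than in M1 and lower in M2+ONX than in M2. The difference of the log2 gaps was 1.67 ± 0.14, adjusted p = 3.64e-07, and 1.66, adjusted p = 4.06e-10, without M1 replicate 2. Ppp1r15a differed by 0.53 ± 0.10, adjusted p = 0.00141, and 0.50, adjusted p = 5.47e-06, without M1 replicate 2. Atf5, which was higher in M2 with and without inhibitor, differed by 0.31 ± 0.10, adjusted p = 0.0436, and 0.25, adjusted p = 0.0379, without M1 replicate 2.

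Class II antigen presentation genes had positive calls and no negative one. Of 10 tested, 6 were positive, where 6.24% of all genes were, and the median difference was 0.73. Without M1 replicate 2, 5 of 11 were positive, where 5.35% of all genes were. H2-Aa was at 95.1, 95.2, 87.1 and 90.3 CPM in M1 and 24.2, 22.2, 22.4 and 23.1 CPM in M2 without inhibitor. It was at 51.1, 45.8, 45.6 and 44.1 CPM in M1+ONX and 5.87, 4.97, 5.11 and 5.61 CPM in M2+ONX. H2-Aa was lower with the inhibitor on both sides, and by a larger factor on the M2 side, and the groups did not overlap. The difference of the gaps was 1.23 ± 0.10, adjusted p = 1.63e-07, and 1.13, adjusted p = 3.64e-09, without M1 replicate 2. H2-Ab1 differed by 1.01 ± 0.13, adjusted p = 4.87e-05, and 1.01, adjusted p = 1.69e-08, without M1 replicate 2, and Ciita by 0.98 ± 0.27, adjusted p = 0.0214, and 0.85, adjusted p = 0.0287, without M1 replicate 2. The summed B cell markers moved alongside, from 83.2 to 96.1 CPM in M1 and 119 to 127 CPM in M2 without inhibitor to 41.7 to 46.7 CPM in M1+ONX and 61.8 to 69.5 CPM in M2+ONX. Ighm went from 13.4 ± 2.54 to 3.16 ± 0.988 CPM on the M1 side and from 9.21 ± 0.542 to 2.44 ± 0.486 CPM on the M2 side. The 9 dendritic cell markers summed to 10.2 to 14.26 CPM in M1 and 33.12 to 36.01 CPM in M2 without inhibitor, and to 7.768 to 9.202 CPM in M1+ONX and 16.57 to 22.89 CPM in M2+ONX, with Batf3 at 29.6 ± 1.3 CPM in M2 and 14.6 ± 1.86 CPM in M2+ONX. The part of these cell types in the class II result was not tested.

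Interferon-stimulated and pattern recognition genes had negative calls. Of 31 type I interferon-stimulated genes, 6 were negative and none positive, where 4.56% of all genes were negative. Without M2+ONX replicate 4 the counts were 5 and none, where 3.95% of all genes were negative and 5.13% positive, and the median of the list moved from -0.38 to -0.17. Without M1 replicate 2 they were 18 and 1, where 12.5% were negative, and without both libraries 11 and 2, where 6.73% were. Oas3, which makes the activator of RNase L, was at 991, 1053, 1024 and 924 CPM in M1 and 10.7, 10.6, 12.3 and 12 CPM in M2, against 771, 809.5, 846 and 843 CPM in M1+ONX and 35.5, 45.1, 32.8 and 67.6 CPM in M2+ONX. Its M2+ONX libraries all lay above all M2 libraries, with replicate 4 the highest, and its M1+ONX libraries below all M1 libraries. The difference was -2.16 ± 0.21, adjusted p = 2.13e-06, and -2.25, adjusted p = 3.1e-09, without M1 replicate 2. Isg20, an antiviral exonuclease, differed by -2.09 ± 0.25, adjusted p = 1.5e-05, and -2.03, adjusted p = 5.31e-09, without M1 replicate 2. All these values of Oas3 and Isg20 include M2+ONX replicate 4. Of 20 pattern recognition receptors, 7 were negative and none positive. Without M1 replicate 2, 15 were negative and none positive, and without both libraries 12 were negative and 1 positive. Nlrp3 differed by -0.88 ± 0.15, adjusted p = 0.000816, and -0.96, adjusted p = 9.19e-05, without M1 replicate 2.

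Among genes of at least 5 CPM in a group that were called with and without M1 replicate 2, the largest positive difference was in Cdh1, E-cadherin, which IL-4 is known to induce in macrophages. It was at 13.4 ± 1.58 CPM in M2 and 4.11 ± 0.203 CPM in M2+ONX, with 0.033 ± 0.0382 CPM in M1 and 0.152 ± 0.145 CPM in M1+ONX (3.90 ± 0.90, adjusted p = 0.00752, and 4.30, adjusted p = 0.00364, without M1 replicate 2). The few counts in M1 leave the size of this difference uncertain. Tnfrsf26, a TNF receptor family member, was at 16.7, 15.3, 17.5 and 17.8 CPM in M1 and 48.1, 53.7, 52.2 and 59 CPM in M1+ONX. On the M2 side it was at 106 ± 3.01 without and 113 ± 2.32 CPM with the inhibitor, so that the gap was narrower (1.68 ± 0.09, adjusted p = 5.92e-10, and 1.53, adjusted p = 4.22e-13, without M1 replicate 2). Bcl2l11 was at 9.72 ± 0.874 CPM in M1, 16.9 ± 1.61 in M1+ONX, 57.9 ± 4 in M2 and 42.4 ± 3.26 in M2+ONX (1.36 ± 0.12, adjusted p = 5e-07, and 1.27, adjusted p = 2e-08, without M1 replicate 2). The serotonin receptor gene Htr2b was at 9.7 ± 0.698 in M2 and 1.62 ± 0.489 CPM in M2+ONX (1.61 ± 0.32, adjusted p = 0.00225, and 1.64, adjusted p = 0.000631, without M1 replicate 2). Lhx2, a homeobox factor, was at 52.4 ± 5.41 in M1+ONX and 0.493 ± 0.0743 CPM in M2+ONX (1.72 ± 0.28, adjusted p = 0.000455, and 1.60, adjusted p = 0.000189, without M1 replicate 2). Ttll11, Clec2i and Efcc1 completed the 8, with differences of 1.74, 1.63 and 1.60.

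On the negative side Mlkl, the executor of necroptosis, was at 349, 328, 332 and 352 CPM in M1 and 16.7, 16.4, 15.2 and 15.9 CPM in M2. With the inhibitor it was at 449, 450.5, 469.9 and 484 CPM in M1+ONX and 89.4, 89.5, 85.2 and 94.4 CPM in M2+ONX. It was thus higher with the inhibitor in both states, by a larger factor in M2, and no library of one group reached another group's range (-1.92 ± 0.08, adjusted p = 1.22e-11, and -2.05, adjusted p = 2.91e-17, without M1 replicate 2). Il12rb1, a chain of the interleukin-12 receptor, was at 52.2 ± 10.8 in M1+ONX and 0.443 ± 0.0947 CPM in M2+ONX, against 81.5 ± 10.4 and 0.0794 ± 0.0661 CPM without the inhibitor (-2.88 ± 0.63, adjusted p = 0.00544, and -2.97, adjusted p = 0.00388, without M1 replicate 2). Cst7 (cystatin F), Spata13, Slamf1 and Dmtn followed, with differences of -2.09, -1.90, -1.86 and -1.82. Ptgs2 was at 867 ± 150.2 in M1 and 14.5 ± 1.18 CPM in M2 without the inhibitor, and its gap was narrower with it (-1.10 ± 0.15, adjusted p = 6.79e-05, and -1.33, adjusted p = 2.06e-11, without M1 replicate 2).

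Genes of the proteasome feedback differed in the gap one by one. Keap1 was at 160.3, 213, 168 and 158 CPM in M1 and 41.8, 43.7, 41.9 and 43.1 CPM in M2, so the inhibitor's presence went with a narrower gap, lower in M1 and higher in M2 (-0.90 ± 0.11, adjusted p = 1.6e-05, and -0.91, adjusted p = 1.48e-10, without M1 replicate 2). Psma5 had a difference of -0.97 ± 0.09, adjusted p = 1.52e-06, and -1.04, adjusted p = 4.02e-10, without M1 replicate 2. Of the 14 core subunits 5 were called negative and none positive, where 4.56% of all genes were negative and 6.24% positive. Sqstm1 was at 1574 ± 156 in M1 and 765 ± 20.2 CPM in M2 without the inhibitor, with a positive difference of 0.34 ± 0.08, adjusted p = 0.0119, and 0.30, adjusted p = 0.000171, without M1 replicate 2. No call was made on Psmb8 (-0.22 ± 0.11, adjusted p = 0.212, and -0.25, adjusted p = 0.0211, without M1 replicate 2) in the first fit. Among 30 tested IL-4-induced genes, 9 had a positive and 1 a negative difference, where 6.24% and 4.56% of all genes had. Without M1 replicate 2 these counts were 9 and 2, where 5.35% and 12.5% of all genes had. Without M2+ONX replicate 4 they were 8 and 1, where 5.13% and 3.95% had. The arginine enzymes Nos2 and Arg1 stood lower with the inhibitor in the state that expressed them, and no difference of their gaps was called. With 3 counts of Nos2 in all over M2+ONX, the size of its gap was poorly measured, so the missing call on Nos2 does not show an equal gap. Nos2 was at 1979 ± 314 in M1 against 885 ± 94.6 CPM in M1+ONX, and Arg1 at 1947 ± 156 in M2 against 966 ± 140.4 CPM in M2+ONX, a difference of gaps of 0.08 ± 0.17, adjusted p = 0.836, and -0.02, adjusted p = 0.972, without M1 replicate 2 for Arg1.

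**Figure D5:**
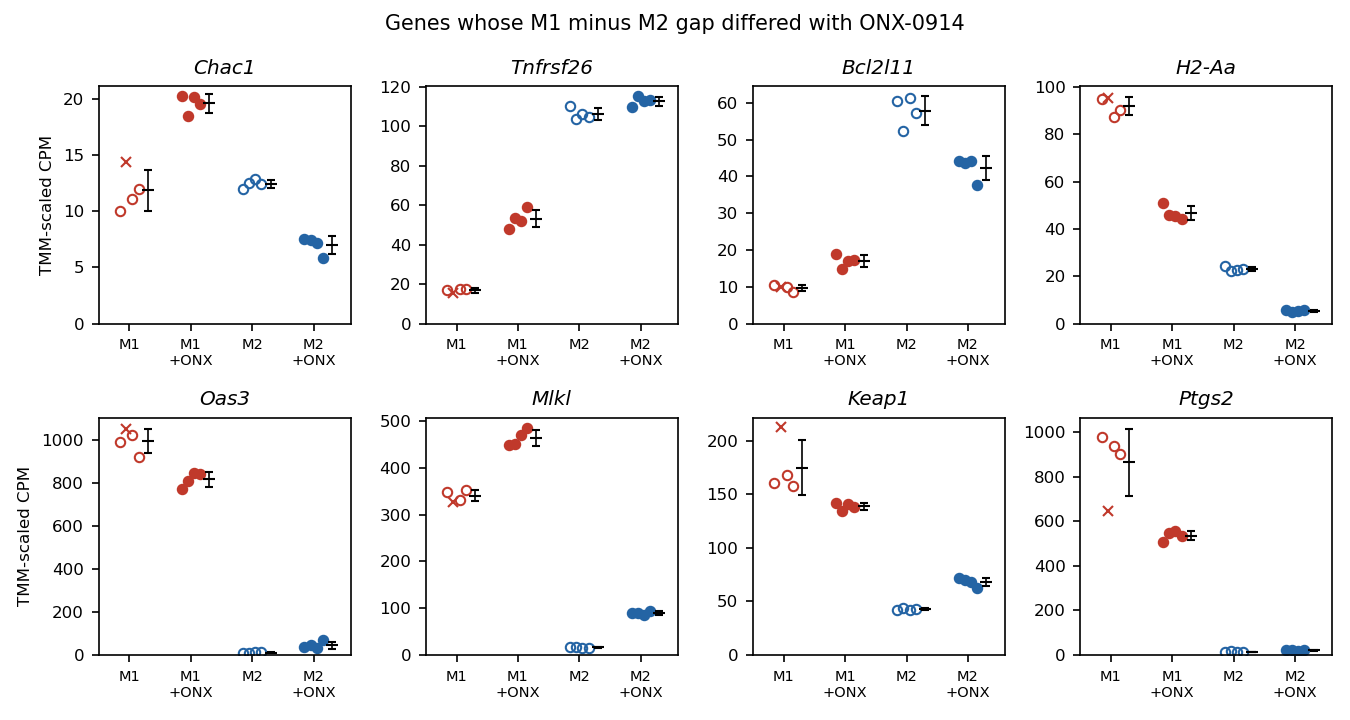
Level of 8 genes in M1, M1+ONX, M2 and M2+ONX in TMM-scaled CPM on linear axes, 1 point a library, open without and filled with ONX-0914, with a cross for M1 replicate 2 and the mean ± SD (n = 4) in black. Chac1 lies at about the same level in M1 and M2 and apart in M1+ONX and M2+ONX, and Mlkl is higher with the inhibitor in both states.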

How the data were processed

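RNA from 24 libraries of mouse peritoneal macrophages (6 groups of 4) was sequenced in paired reads of 150 bases per the labels. The deposited table holds raw counts per gene, which the authors made with a counting tool, strand setting and annotation release that no source used here gives. The submitters' processing notes name FastQC 0.11.9, cutadapt 2.8, Bowtie2 2.2.5, Picard and build mm10. The table has 54532 features, of which 54495 matched a symbol in GENCODE release 21 for mouse, and features without one held 0.0025% of counts. Where near-identical genes could share reads, their values are uncertain.

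Counts were compared with edgeR 4.0.16 (R 4.3.3): TMM scaling, filterByExpr, a quasi-likelihood F test with 1 mean per group and no replicate block, and Benjamini-Hochberg adjustment over all tested genes, called under 0.05. M1 with ONX-0914 was compared with M2 with ONX-0914 over 8 libraries, with 6 residual degrees of freedom. The difference of the gaps with and without inhibitor was fitted over 16 libraries. The tested genes held 99.892% of counts in the 8 libraries. Libraries of 18585730 to 22882972 counts set the counting error, and intervals of count ratios are 95% exact and cover counting error only. A floor of 3 counts over a group stands for no count. The scripts were tested on simulated data. Alternatives used DESeq2 1.42.0, limma 3.58.1, other filters, other scalings and libraries left out.

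The comparison, its 42 gene lists and 9 marker lists were chosen with earlier results of these data known. Named genes are the 12 largest differences in each direction among called genes of at least 5 CPM with groups that do not overlap, up to 4 called members of each list, the 8 largest differences of gaps in each direction and a set of state and proteasome genes. Members named beside a count of 5 or fewer, and the marker genes named, were chosen after their values were seen. The marker lists for mast cells, eosinophils, dendritic cells, neutrophils and erythroid cells had 2, 1, 4, 3 and 0 members pass the filter. Promoters are the 250 bases before the start in RefSeq on GRCm38.p6, and 156 of 206 named genes matched an entry. Some genes that this rule names are not reported here. Distances between libraries use log2 CPM over the 14692 genes that passed the filter over all 24 libraries, which is a wider set than the tested genes. If the libraries of a group do not come from separate cultures, p-values measure only the spread between these samples.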

Additional observations from a re-analysis of the deposited data

Results flagged for a closer look

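In groups of 4 libraries, the highest or lowest library was tested against the others by the gap to its nearest neighbour relative to the range (Dixon's criterion, at the 95% level), over library totals, list sums and named genes. Of 233 groups tested, 18 passed, and chance alone passes about 5% of groups. M2+ONX replicate 4 had 5 of them, M1+ONX replicate 1 and M2+ONX replicate 3 had 3 each, M1+ONX replicate 4 and M2+ONX replicate 2 had 2 each, and M1+ONX replicates 2 and 3 and M2+ONX replicate 1 had 1 each. For genes with a few counts, such as Nos2, Cxcl9 and Il1b in M2+ONX, the values move in steps and the 5% rate does not hold. Such flags do not show that a library deviated.

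M2+ONX replicate 4 was highest for Ccl5 at 4.76 CPM, where the other 3 libraries had 0.603 to 0.894 CPM, and had no count (0 CPM) for Nos2 where they had 0.0477 to 0.0502. It was lowest for the summed LXR and PPARγ genes at 14280 CPM against 15660 to 15890, for the NRF1, NRF2, KEAP1 and p62 genes at 3164 CPM against 3304 to 3332, and for the T and NK cell markers at 679.1 CPM against 716.8 to 720.3. M1+ONX replicate 1 had the highest total, 22882972 counts (22.88 M) against 18883077 to 19402431, the lowest summed mast cell markers, 10.8 CPM against 14.2 to 14.7, and the highest Psmb6, 655 CPM against 625 to 629.9. M1+ONX replicate 4 was lowest for Nos2 at 744 CPM against 918 to 944 and for the summed complement genes at 2626 CPM against 2898 to 2942.

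Single low-count values were also set apart. Cxcl9 was at 0.149 CPM in M2+ONX replicate 3 and Il1b at 0.0993 CPM, with no count in the other 3 libraries. Ifit3b was at 0.251 CPM in M2+ONX replicate 2 against 0.0477 to 0.0497, and Il12rb1 at 0.301 CPM there against 0.477 to 0.497. Efcc1 was at 12.9 CPM in M2+ONX replicate 1 against 15.1 to 15.5, and Stat6 at 183 CPM in M1+ONX replicate 2 against 191 to 192. Gapdh was at 94.3 CPM in M1+ONX replicate 3 and 94.3 CPM in M2+ONX replicate 3, where the other libraries of both groups had 4.55 to 6.40 CPM.

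The gap between M1 and M2 differed with the inhibitor, by the test of the difference itself (edgeR), for 21 of the named genes outside the list rule. The positive log2 differences were 3.90 for Cdh1, 1.74 for Ttll11, 1.72 for Lhx2, 1.68 for Tnfrsf26, 1.67 for Chac1, 1.63 for Clec2i, 1.61 for Htr2b, 1.60 for Efcc1, 0.70 for Tnf, 0.49 for Chil3, 0.34 for Nfe2l1 and 0.34 for Sqstm1. The negative ones were -2.88 for Il12rb1, -2.16 for Oas3, -2.09 for Isg20, -2.09 for Cst7, -1.92 for Mlkl, -1.90 for Spata13, -1.86 for Slamf1, -1.82 for Dmtn and -0.90 for Keap1.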

How the results depend on the processing

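The comparison of M1+ONX with M2+ONX kept its counts within 1.5 times of 9821 under every alternative run except a required change of more than 1 log2 unit, under which 2377 genes were called, 1245 higher in M1+ONX and 1132 higher in M2+ONX. Leaving out each of the 8 libraries gave 9546 to 9773 genes. With the replicate number as a block it gave 9730, and the block in the difference of gaps gave 1533. Libraries with the same number deviated with correlations of -0.0311 to 0.0519 in M1+ONX and M2+ONX, and those with different numbers with -0.0406 to 0.0405. In M1 and M2 the same numbers gave 0.0015 to 0.1051, where 1 of the 4 pairs was above 0.1, and different numbers -0.1097 to 0.035. M1 replicates 1 and 2 correlated best with their own number in M2. Not every library did so, and the numbers were not taken to pair the samples. Of the named genes, Gapdh reversed, to a log2 difference of -2.31 without M1+ONX replicate 3, and was 2.43 without M2+ONX replicate 3.

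The difference of gaps moved more. Its 1532 calls became 2829 with limma voom (1747 positive, 1082 negative), 2577 without M1 replicate 2 (1807 negative), 2576 with all libraries but that one (1810 negative), 2522 without that library and M2+ONX replicate 4, an alternative chosen after seeing the data (1558 positive), and 9 with a required change of 1 log2 unit (5 and 4). DESeq2's Wald test gave 1000 negative calls, its size factors 578 positive, and all 24 libraries 559 positive and 1422 negative. Leaving out each of the 16 libraries gave 1247 to 2577 calls, 371 to 813 positive and 532 to 1807 negative, and the positive count was more than 1.5 times lower without M1 replicates 1, 3 or 4 (438, 410 and 431) and without M1+ONX replicates 1, 2 or 3 (390, 383 and 371). The cause was not tested.

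Depth limits genes at or near 0 in one state: a group with no count allows up to 3 counts.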

Other observations

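Gapdh, a glycolytic enzyme often used as a reference gene, was at 77.5 to 106 CPM in 5 libraries and at 2.85 to 10.6 CPM in the other 19. The 5 were M1+ONX replicate 3 (94.3 CPM), M2+ONX replicate 3 (94.3 CPM), M1 replicate 1, M2 replicate 3 and M0 with ONX-0914 replicate 4. Gapdh has many near-identical copies in the genome, and no value between these levels was seen. Actb, the other gene often used as a reference, was at 5599 CPM in M1+ONX and 2106 CPM in M2+ONX, a log2 difference of 1.44.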
